A study of Mus musculus with 12 samples.

Results

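The semaphorins, plexins and neuropilins are a signalling family of 31 genes in these data, 20 semaphorins, 9 plexins and 2 neuropilins, out of 18194 genes with a named probe set. They were chosen by gene symbol, and each is represented by its probe set with the highest mean signal. All 31 were measured, and the lowest group mean of any of them was 5.64 log2 units (Sema3g, wild type, day 4), against a median of 3.08 for bacterial control probe sets. No filter on low signal was applied, so no member was lost.

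The RNA came from spinal cord of mice on 12 arrays, with 3 biological replicates in each of 4 groups. The groups cross the wild-type and Olig2cre/DA-Cat genotypes with day 4 and day 15. Olig2cre directs Cre recombinase to cells that use Olig2, a transcription factor of oligodendrocytes, their precursors and motor neuron progenitors, and DA-Cat is a dominant-active form of β-catenin, which carries Wnt signals to the nucleus. The controls were wild-type littermates, and a group with Cre alone was not analysed here. The labels tag the days as a developmental stage. The same labels attach to all 12 samples a protocol in which white matter of mice aged 8 to 10 weeks received 1% lysolecithin, a detergent that strips myelin, with cords taken unlesioned or 14 days later. What the days count from was therefore not settled here. The labels name the tissue both as spinal cord and as ventrolateral white matter. The mean of 12 neuron markers lay between 12.24 and 12.49 on all arrays, and the mean of 7 motor neuron markers between 6.61 and 7.11. How many animals a sample holds is not given, so p-values measure the spread between these samples.

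Semaphorins are secreted or membrane-bound guidance proteins that were first known for repelling growing axons. Plexins are their receptors and signal through a GTPase-activating domain inside the cell. Class 3 semaphorins are secreted, and most of them need a neuropilin as the binding part of a receptor complex with an A-type plexin. Classes 4 to 7 mostly bind plexins directly. In the spinal cord semaphorins steer axons and migrating oligodendrocyte precursors, and some are made by myelinating cells.

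Plxnb3, Sema4d and Sema3d were the members with the largest differences between genotypes, and their promoters are shown because these members were called in the comparison of genotypes. The windows are RefSeq sequence of assembly GRCm38.p6, from 250 bases before to 50 bases after an annotated start, printed 5′ to 3′ on the gene's strand. Capitals mark a SOX motif (ACAATG, or CATTGT on the other strand) or an E-box (CAGCTG, the same on both strands), and no marked motifs overlap. The Sema3d window has no capitals because it held neither. Plxnb3 lies at chrX:73756853-73757152 on the plus strand. Sema4d has 3 windows in the table, of which chr13:51748761-51749060 and chr13:51756634-51756933, both on the minus strand, hold a motif. Sema3d lies at chr5:12382916-12383215 on the plus strand.
Plxnb3: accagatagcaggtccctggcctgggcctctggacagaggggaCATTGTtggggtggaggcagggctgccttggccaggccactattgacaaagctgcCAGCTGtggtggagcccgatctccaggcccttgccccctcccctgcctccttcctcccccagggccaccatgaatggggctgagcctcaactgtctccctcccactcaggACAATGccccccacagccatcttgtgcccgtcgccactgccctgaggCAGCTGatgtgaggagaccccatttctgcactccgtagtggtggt
Sema4d, SOX window: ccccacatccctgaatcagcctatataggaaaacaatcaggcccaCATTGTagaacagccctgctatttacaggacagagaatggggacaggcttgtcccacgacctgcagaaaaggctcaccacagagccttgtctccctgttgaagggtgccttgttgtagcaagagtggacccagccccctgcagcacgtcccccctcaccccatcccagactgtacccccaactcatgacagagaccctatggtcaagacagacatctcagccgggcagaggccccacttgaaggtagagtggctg
Sema4d, E-box window: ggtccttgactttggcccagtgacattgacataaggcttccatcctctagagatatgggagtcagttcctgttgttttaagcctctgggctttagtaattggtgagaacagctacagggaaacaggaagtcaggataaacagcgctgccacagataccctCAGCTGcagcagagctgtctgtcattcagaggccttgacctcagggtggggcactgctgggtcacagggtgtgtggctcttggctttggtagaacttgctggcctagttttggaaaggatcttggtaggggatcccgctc
Sema3d: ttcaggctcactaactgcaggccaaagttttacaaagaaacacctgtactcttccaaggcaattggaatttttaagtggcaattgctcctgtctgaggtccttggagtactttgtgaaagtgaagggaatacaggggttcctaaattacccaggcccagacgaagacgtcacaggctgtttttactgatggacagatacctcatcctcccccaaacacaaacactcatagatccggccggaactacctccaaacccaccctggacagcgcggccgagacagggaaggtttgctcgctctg

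The table held 37 promoter windows for 26 of the 31 members. The SOX motif was found in 5 of the 37 windows (13.5%), those of Plxnb3, Plxnc1, Sema3a, Sema4a and Sema4d, against 12.6% of all 32851 windows. The E-box was found in 6 windows (16.2%), of Plxnb3, Sema3g, Sema4d, Sema4g, Sema6c and Sema7a, against 16.3% of all windows. The TCF/LEF core CTTTGA, on either strand, was in 3 windows (8.11%), of Nrp2, Sema3e and Sema6d, against 16.0% of all windows, and the MYRF motif CTGGCAC was in windows of Nrp1, Plxnb2 and Sema4c. None of these shares describes binding. The member windows held each motif at 8.11% to 16.2%, near or below the share of all windows for the SOX, E-box and TCF/LEF letters and above the 5.01% of all windows for MYRF.

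Signals were alike in scale on the 12 arrays, with medians between 6.14 and 6.19 log2 units and mean correlations within a group of 0.994 to 0.997. Axin2, a feedback target of Wnt signalling, was higher in Olig2cre/DA-Cat at both days, by 1.05 (adjusted p = 1.16e-05) and 0.51 (adjusted p = 0.0057) log2 units, whereas Ctnnb1 itself, which encodes β-catenin, differed by -0.05 and -0.07 with no call. Replicate 2 of Olig2cre/DA-Cat at day 15 stood apart in the Y-linked gene Eif2s3y, at 3.29 log2 units against 6.54 to 8.82 on the other arrays. Replicate 1 of that group had a mean of 10.4 over 12 skeletal muscle markers, against 4.94 to 8.48 on all other arrays. Counts of called members, and the values of Sema4d, Plxnb3 and Sema4c at day 15, are therefore also given without replicate 2, and alternatives added the muscle level or Eif2s3y as a covariate.

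At day 4, 4 members fell and 1 rose in Olig2cre/DA-Cat: the ligands Sema4d, Sema3d and Sema5a and the receptor Plxnb3 fell, and the ligand Sema4g rose. Sema4d and Plxnb3 fell 3.73-fold and 3.66-fold. That is 16.1% of the members called, against 3.12% of all genes (1.3% higher and 1.81% lower), with a member median of 0.07 and a median over all genes of 0.03 log2 units. At an unadjusted p under 0.05, 16 members differed, 9 of them higher, or 51.6% against 20.6% of all genes. All calls are from limma with Benjamini-Hochberg adjustment over 18194 genes at a threshold of 0.05.

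**Figure D1:**
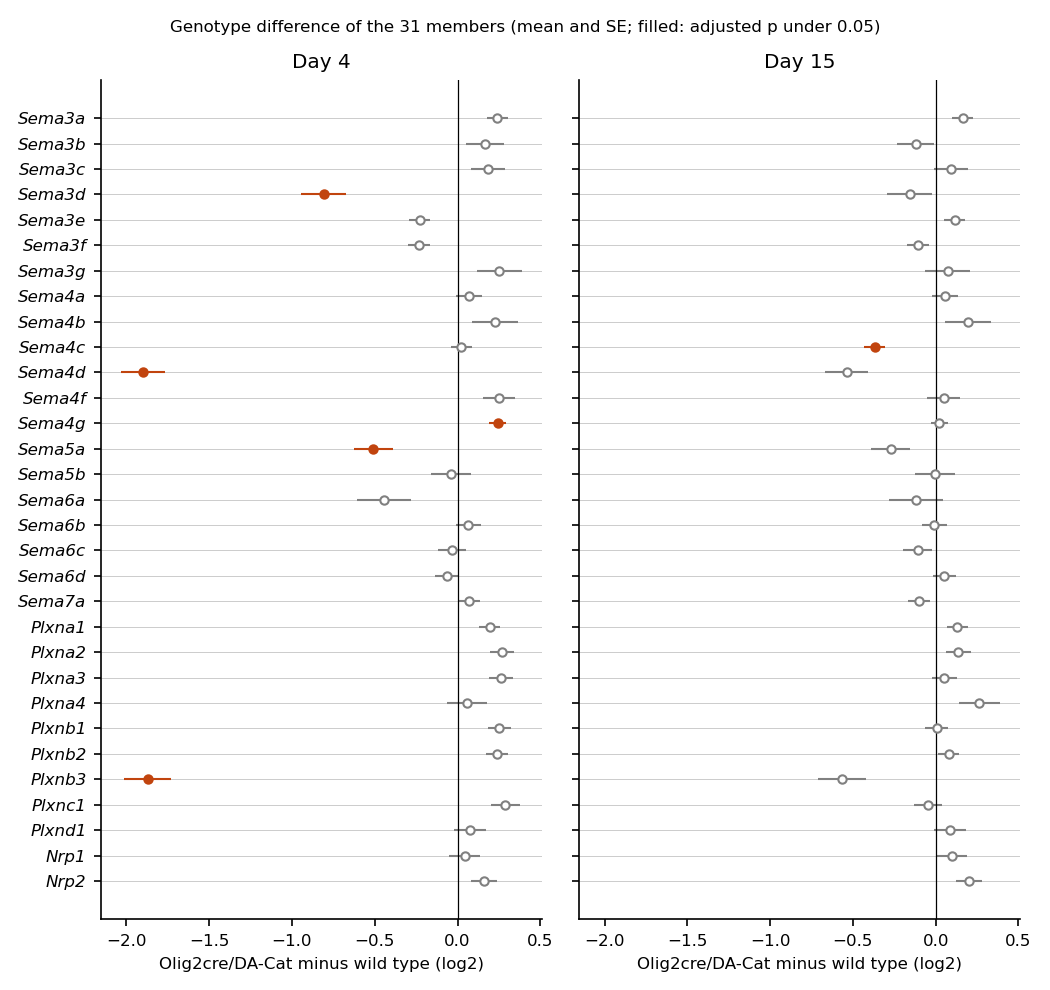
Genotype difference (Olig2cre/DA-Cat minus wild type, log2 units) for each of the 31 members on day 4 (left) and day 15 (right), with the standard error as a bar and a filled point where the adjusted p was under 0.05. Sema4d (-1.90) and Plxnb3 (-1.87) lie far to the left at day 4, and Sema4c (-0.37) is the filled point at day 15.

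Among the ligands, Sema4d is a transmembrane class 4 semaphorin that oligodendrocytes carry and that binds plexin-B1 to collapse growth cones. The wild-type arrays of day 4 read 9.54, 9.62 and 9.63 log2 units, and the Olig2cre/DA-Cat arrays 7.50, 7.67 and 7.91. Every Olig2cre/DA-Cat array lay more than a log2 unit below every wild-type array. The difference was -1.90 ± 0.132 log2 units (SE; adjusted p = 4.02e-06), and it stayed called in all 24 alternatives tried, at an adjusted p of at most 8.46e-05.

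Sema4d has 3 probe sets on the array that did not give one size. The other probe sets differed by -0.88 (adjusted p = 0.00118 over all probe sets) and -0.27 (adjusted p = 0.12 over all probe sets) at day 4. All of them pointed down, so the direction did not depend on the probe set, while the 3.73-fold size did.

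Plxnb3, the B-type plexin that binds Sema5a, followed the same course at day 4. Its wild-type arrays read 9.20, 9.24 and 9.35 and its Olig2cre/DA-Cat arrays 7.23, 7.37 and 7.58 log2 units. The groups were again far apart, with no overlap. The difference was -1.87 ± 0.144 (SE; adjusted p = 8.85e-06), the second probe set gave -1.62, and the call held in all 24 alternatives.

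Sema3d, a secreted class 3 semaphorin, fell 1.75-fold. The wild-type arrays read 7.16, 7.18 and 7.39 and the Olig2cre/DA-Cat arrays 6.15, 6.54 and 6.62, so the lowest wild-type array was above the highest Olig2cre/DA-Cat array. The difference was -0.81 ± 0.135 (SE; adjusted p = 0.00622), called in all 24 alternatives. The second probe set of Sema3d was dim, between 3.80 and 4.27 log2 units over all arrays, and differed by -0.04.

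Sema5a, a transmembrane ligand with thrombospondin repeats and the partner of plexin-B3, fell less. It read 8.73, 8.85 and 8.98 in wild type and 8.31, 8.32 and 8.39 in Olig2cre/DA-Cat. The groups did not overlap, and the difference was -0.51 ± 0.117 (SE; adjusted p = 0.0381). This call held in 15 of 24 alternatives. It was lost, among others, at an adjusted p of 0.156, 0.114, 0.0684, 0.129 and 0.134 without replicate 1 or 2 of wild type or replicate 1, 2 or 3 of Olig2cre/DA-Cat at day 4, at 0.0556 without replicate 2 of wild type and 0.051 without replicate 3 of Olig2cre/DA-Cat at day 15, and at 0.203 with the probe set of highest SD. Its 4 probe sets all pointed down, from -0.19 to -0.68.

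Sema4g, a class 4 transmembrane semaphorin, was the member that rose. The wild-type arrays read 9.54, 9.55 and 9.57 and the Olig2cre/DA-Cat arrays 9.75, 9.79 and 9.84. This narrow separation came to 0.24 ± 0.0511 log2 units (SE; adjusted p = 0.026), or 1.18-fold. The call held in 16 of 24 alternatives. It was lost, among others, under quantile normalization (adjusted p = 0.0675) and with only the 6 arrays of that day (adjusted p = 0.0581), and at 0.0791, 0.096, 0.0759, 0.0919 and 0.0633 without replicate 1 or 2 of wild type or replicate 1, 2 or 3 of Olig2cre/DA-Cat at day 4.

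**Figure D2:**
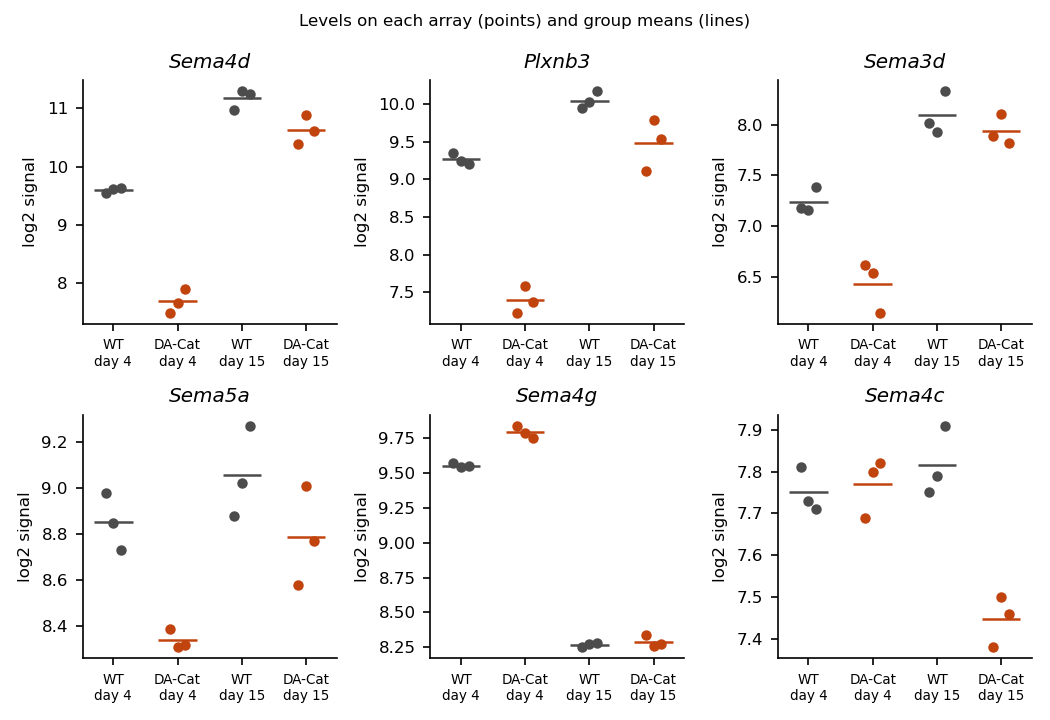
Log2 signal of 6 members on each array (points, 3 per group) with the group mean as a line; each panel has its own vertical scale that does not start at 0. Sema4d and Plxnb3 drop below 8 in Olig2cre/DA-Cat at day 4 and rise above 9 in all day 15 arrays, and Sema4c separates by genotype at day 15.

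Of the other plexins, 6 had positive differences near the threshold at day 4 without a call. Plxna1, Plxna2, Plxna3, Plxnb1, Plxnb2 and Plxnc1 had differences between 0.19 and 0.29 log2 units at adjusted p between 0.0696 and 0.122. Each reached an unadjusted p under 0.05, as 20.6% of all genes did. A-type plexins carry class 3 and class 6 semaphorin signals, Plxnb1 and Plxnb2 are receptors of class 4 semaphorins, and Plxnc1 is the receptor of Sema7a. In these 6 genes every Olig2cre/DA-Cat array lay above every wild-type array, as it did for 11 members in all, while 7 members had all such arrays below and 13 overlapped. Of all genes, 29.1% had no overlap, 18.8% with every Olig2cre/DA-Cat array above and 10.3% below. Plxna4 (0.06) and Plxnd1, the receptor of Sema3e (0.07), overlapped between the genotypes.

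The count at day 4 depended on which arrays entered the fit. Without replicate 2 of Olig2cre/DA-Cat at day 15, 10 members were called, 5 in each direction, and the share of all genes called rose to 4.13%. The single arrays of day 4 moved it the other way, to 3 members without replicate 1 or 2 of wild type or without replicate 1, 2 or 3 of Olig2cre/DA-Cat. The share of all genes called in those fits fell too, to between 1.43% and 2.34%. With array weights 16 members were called, 9 higher and 7 lower, and the share of all genes called rose with it, to 11.9% from 3.12%. Under quantile normalization 5 were called, all lower, with 2.79% of all genes called (0.687% higher and 2.1% lower).

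Neither neuropilin was called at day 4, and neither reached an unadjusted p under 0.05, where 3.12% and 20.6% of all genes did. Nrp1, the co-receptor of Sema3a, differed by 0.04 with a 95% interval from -0.16 to 0.25, and Nrp2, the co-receptor of Sema3f, by 0.16 with an interval from -0.01 to 0.33. One further probe set of Nrp2 read higher in Olig2cre/DA-Cat by 0.42 (adjusted p = 0.021 over all probe sets). The ligand Sema6a, which binds A-type plexins, differed by -0.45 ± 0.163 (SE; adjusted p = 0.152). The other ligands lay between -0.23 and 0.25.

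Genes of mature oligodendrocytes moved with the members that fell. The mean of 14 measured myelin markers was 10.17 to 10.41 log2 units in wild type and 8.11 to 8.31 in Olig2cre/DA-Cat at day 4, with 13 of 14 called lower at a median of -2.31. None of them had a group mean under 5. The mean of 11 precursor markers was 9.71 to 9.75 against 9.17 to 9.23, with 6 of 11 called lower. Fewer oligodendrocytes and less of these RNAs per oligodendrocyte cannot be told apart in bulk tissue, and the part of either in the differences of Sema4d, Plxnb3, Sema3d and Sema5a was not tested. Astrocyte markers, with a mean between 11.64 and 11.95 on all 12 arrays, had 1 of 9 called lower, and neuron markers had 1 of 12 called higher.

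**Figure D3:**
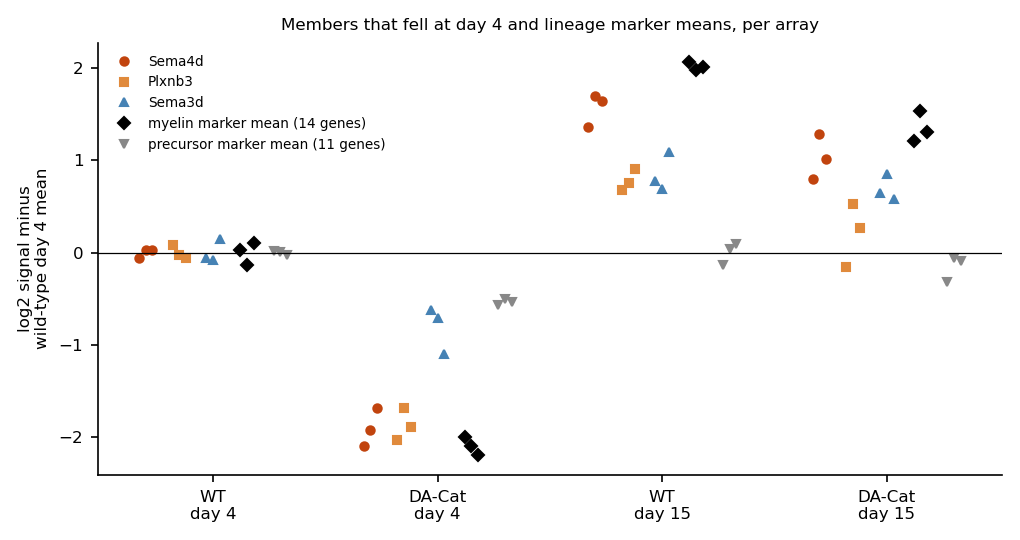
Log2 signal of Sema4d, Plxnb3 and Sema3d and the means of 14 myelin and 11 precursor markers on each array, minus the wild-type day 4 mean of the same quantity, by group; each point is 1 array. At day 4 Sema4d, Plxnb3 and the myelin mean (8.11 to 8.31 against 10.17 to 10.41 in wild type) lie well below 0 in Olig2cre/DA-Cat, and at day 15 Sema4d, Sema3d and the myelin mean are above 0 on every array.

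At day 15 the ligand Sema4c fell in Olig2cre/DA-Cat, by 1.29-fold, and no other member passed the threshold in the main fit. That is 3.23% of the members against 2.93% of all genes, or 2.31% called lower, so the share was near the background. The member median was 0.05 and that of all genes 0.02 log2 units, and 6 members had an unadjusted p under 0.05, 4 of them lower, or 19.4% against 16.9% of all genes.

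Sema4c, the transmembrane ligand of plexin-B2, read 7.75, 7.79 and 7.91 in wild type and 7.38, 7.46 and 7.50 in Olig2cre/DA-Cat at day 15. The groups did not overlap, and the difference was -0.37 ± 0.0644 (SE; adjusted p = 0.00833). At day 4 the same probe set read 7.71 to 7.81 and 7.69 to 7.82, a difference of 0.02 whose sign turned under quantile normalization and without replicate 3 of Olig2cre/DA-Cat at day 4. The day 15 call held in 23 of 24 alternatives, at -0.40 (adjusted p = 0.0105) without replicate 2 of Olig2cre/DA-Cat, and was lost, at an adjusted p of 0.0769, when only the 6 arrays of that day entered the fit. The change of the genotype difference from day 4 to day 15, -0.39 ± 0.0911, was not called (adjusted p = 0.117).

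Sema4d and Plxnb3 did not pass the threshold at day 15, though Sema4d was called in 11 and Plxnb3 in 7 of the 24 alternatives. The Sema4d calls included the limma fits with replicate number as a block over all arrays (adjusted p = 0.0167) and within each day (0.0203). Sema4d read 10.96, 11.24 and 11.29 in wild type and 10.39, 10.61 and 10.88 in Olig2cre/DA-Cat, which differed by -0.54 ± 0.132 (SE; adjusted p = 0.0512). Plxnb3 read 9.94, 10.02 and 10.17 against 9.11, 9.53 and 9.79, a difference of -0.57 ± 0.144 (SE; adjusted p = 0.0583). In both, every Olig2cre/DA-Cat array was below every wild-type array, as in 4 of 31 members, while 4 had all such arrays above; of all genes 20.3% had no overlap, 9.69% below and 10.6% above.

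The highest Olig2cre/DA-Cat value of both genes came from replicate 2, the array low in Eif2s3y, which also had the highest myelin marker mean of its group, 11.84 against 11.52 and 11.61. Without that array the differences were -0.67 for Sema4d (adjusted p = 0.0131) and -0.72 for Plxnb3 (adjusted p = 0.0104), and 3 members were called instead of 1. The share of all genes called rose too, from 2.93% to 5.14%. Without replicate 1 of Olig2cre/DA-Cat at day 15, the array high in muscle markers, Sema4d and Plxnb3 stayed uncalled. The share of all genes called then fell to 2.06%. Without replicate 1 of wild type at day 15, or replicate 1 or 3 of Olig2cre/DA-Cat at day 4, 2 were called. Of all genes 1.6%, 2.61% and 2.45% were called in these fits. With Eif2s3y as a covariate, which was added after seeing the values, 4 members were called at day 15, all lower, with 5.11% of all genes. These included Sema5a at -0.49 (adjusted p = 0.0195) where the difference had been -0.27 (adjusted p = 0.266). The myelin marker means of day 15 were 12.28 to 12.37 in wild type and 11.52 to 11.84 in Olig2cre/DA-Cat, with 11 of 14 markers lower, and their part in these differences was not tested.

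Sema3d, Sema5a and Sema4g, which differed at day 4, overlapped between genotypes at day 15. Sema3d read 7.93, 8.02 and 8.33 in wild type and 7.82, 7.89 and 8.10 in Olig2cre/DA-Cat, and differed by -0.16 with a 95% interval from -0.45 to 0.14. Sema4g read 8.25, 8.27 and 8.28 against 8.26, 8.27 and 8.34, a difference of 0.02 with an interval from -0.09 to 0.13. None of the 9 plexins and neither neuropilin was called by limma at day 15, with 1 plexin and 1 neuropilin at an unadjusted p under 0.05. Of all genes 2.93% were called and 16.9% had an unadjusted p under 0.05, so so few receptors are near the background.

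The genotype difference itself changed between the days for 2 members, Sema4d and Plxnb3, or 6.45% of members against 0.352% of all genes. The difference of Sema4d at day 15 was less negative than at day 4 by 1.36 ± 0.186 log2 units (SE; adjusted p = 0.0056), and this held in all 23 alternatives at an adjusted p of at most 0.0472. That of Plxnb3 was less negative by 1.31 ± 0.204 (SE; adjusted p = 0.014). The Plxnb3 change was lost, narrowly, without replicate 1 of wild type at day 15 (adjusted p = 0.0516), replicate 1 of wild type at day 4 (0.0543) or replicate 3 of Olig2cre/DA-Cat at day 4 (0.053), and with the Eif2s3y covariate (0.0714). Without replicate 2 of Olig2cre/DA-Cat at day 15 the changes were 1.23 for Sema4d (adjusted p = 0.00778) and 1.15 for Plxnb3 (adjusted p = 0.0161). The second probe set of Plxnb3 changed by 1.14, whereas the other probe sets of Sema4d gave 0.61 (adjusted p = 0.288 over all probe sets) and 0.16, so this result for Sema4d rests on 1 probe set. For Sema3d the change was 0.65 ± 0.191 and was not called (adjusted p = 0.263), so a smaller Sema3d difference at day 15 was not shown. Of the 14 myelin markers, 11 were called in the same direction, and the median change over all 14 was 1.71, with 2 of negative sign.

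Averaged over both days, 9 members were called, 4 higher and 5 lower, which is 29.0% against 8.31% of all genes (4.19% higher and 4.12% lower). The lower ones were Sema4d (-1.22, adjusted p = 7.79e-06), Plxnb3 (-1.22, adjusted p = 1.76e-05), Sema3d (-0.48, adjusted p = 0.00951), Sema5a (-0.39, adjusted p = 0.0143) and Sema4c (-0.17, adjusted p = 0.0382). The higher ones were Sema3a (0.20, adjusted p = 0.0189), Plxna2 (0.20, adjusted p = 0.0344), Plxna1 (0.16, adjusted p = 0.049) and Sema4g (0.13, adjusted p = 0.0438). The Sema5a call was lost with the probe set of highest SD (-0.34, adjusted p = 0.268). By probe set the averages ran from -0.18 to -1.22 for Sema4d and -1.05 to -1.22 for Plxnb3. They ran from -0.02 to -0.48 for Sema3d and -0.09 to -0.40 for Sema5a.

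Sema3a is a secreted repellent that acts through Nrp1 and A-type plexins and repels oligodendrocyte precursors. Sema3a read 9.68, 9.73 and 9.76 in wild type and 9.93, 9.97 and 9.99 in Olig2cre/DA-Cat at day 4, and 8.64, 8.66 and 8.69 against 8.70, 8.84 and 8.94 at day 15. The genotypes did not overlap at either day, and the average difference was 1.15-fold. It was lost with the mean of all probe sets (adjusted p = 0.129) and with the muscle covariate (adjusted p = 0.0639).

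Plxna1 and Plxna2 are receptor chains for class 3 semaphorins. Plxna1 read 8.32, 8.40 and 8.47 in wild type and 8.55, 8.55 and 8.67 in Olig2cre/DA-Cat at day 4, and 7.26, 7.27 and 7.39 against 7.40, 7.41 and 7.50 at day 15. Plxna2 read 9.12, 9.13 and 9.26 against 9.43, 9.44 and 9.45 at day 4, and 7.96, 7.98 and 8.10 against 8.02, 8.16 and 8.28 at day 15. Both separated by genotype at day 4, Plxna1 separated narrowly at day 15 and Plxna2 overlapped there. A second probe set of Plxna1 differed by -0.17 at day 4.

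Several of these small calls did not hold under the alternatives. Plxna1 lost its call in 16 of 23 alternatives and Plxna2 in 15, each in 9 of the 12 fits that left out 1 array, at adjusted p between 0.0657 and 0.121 and between 0.0569 and 0.0845. Sema4g lost it in 17 of 23, including 11 of the 12 fits with 1 array left out, and kept it without replicate 2 of Olig2cre/DA-Cat at day 15. Sema4c lost its average call in 9 of those 12 fits, at adjusted p between 0.0634 and 0.0926. Under quantile normalization the split was 1 higher and 6 lower, and with arrays centred on their medians 1 higher and 5 lower. Of all genes 2.78% were higher and 4.5% lower in the first, and 2.8% and 4.17% in the second. With the muscle level as a covariate 4 members were called, all lower, where 4.38% of all genes were called. The count fell to 5 without replicate 1 or 3 of Olig2cre/DA-Cat at day 15, replicate 1 of wild type at day 4 or replicate 2 or 3 of Olig2cre/DA-Cat at day 4, and rose to 13 without replicate 2 of Olig2cre/DA-Cat at day 15. The share of all genes called was 4.77% to 6.84% in the fits with 5 members and 12.4% in the fit with 13.

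More members were called between the days than between the genotypes. In wild type 23 of 31 members changed between day 4 and day 15, 6 rising and 17 falling, or 74.2% against 44.9% of all genes. Rises made up 19.4% of members against 21.3% of all genes. Falls made up 54.8% of members against 23.6% of all genes, and the member median was -0.35 against -0.02. In Olig2cre/DA-Cat 24 changed, 6 rising and 18 falling, or 77.4% against 48.1% of all genes (21.8% rising and 26.3% falling), with a median of -0.24 against 0.00. In a fit lacking replicate 2 of that group at day 15, 23 changed, 6 rising and 17 falling, where 45.7% of all genes were called.

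All 9 plexins changed with day in wild type, 7 falling and 2 rising, and both neuropilins fell. Plexins fell in 77.8% and rose in 22.2%, against 23.6% and 21.3% of all genes. Plxnc1, the plexin of the C class, fell most. It read 9.04, 9.17 and 9.29 at day 4 and 7.41, 7.51 and 7.53 at day 15 in wild type, and 9.38, 9.47 and 9.52 against 7.26, 7.52 and 7.54 in Olig2cre/DA-Cat. The falls were -1.68 ± 0.0864 (SE; adjusted p = 3.37e-08) and -2.02 ± 0.0864 (SE; adjusted p = 5.43e-09), or 3.21-fold and 4.05-fold. Plxnc1 has 6 probe sets, whose wild-type day differences ran from -1.68 to 0.00, and 4 of them stayed at or below 4.95 log2 units on every array.

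The A-type plexins fell together in wild type, at -1.16 for Plxna2, -1.09 for Plxna1, -0.96 for Plxna3 and -0.35 for Plxna4. In Olig2cre/DA-Cat the first 3 fell by 1.29, 1.15 and 1.17 log2 units, and Plxna4 differed by -0.15 with no call (adjusted p = 0.358). The neuropilins, co-receptors of class 3 ligands, fell as well. In wild type Nrp1 fell by 0.77 and Nrp2 by 0.73, and the falls in Olig2cre/DA-Cat were -0.72 and -0.69. Plxnb2 fell by 0.69 and 0.85, and Plxnd1 by 0.59 and 0.57.

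The ligands were more mixed, with 8 semaphorins falling and 4 rising in wild type. Falls made up 40.0% of semaphorins against 23.6% of all genes. Their rises, at 20.0% against 21.3% of all genes, were near the background. Sema4g fell 2.44-fold, by -1.29 ± 0.0511 in wild type (SE; adjusted p = 7.06e-09) and by -1.50 ± 0.0511 in Olig2cre/DA-Cat (SE; adjusted p = 1.11e-09), and its day 4 and day 15 arrays were over a log2 unit apart in both genotypes. Sema3a fell by 1.06 and 1.14. Sema4b fell by 0.94 and 0.97, and Sema3c, a neuropilin ligand, by 0.62 and 0.71. Sema6d, a ligand of plexin-A1, fell by 0.34 and 0.22, Sema4a by 0.35 and 0.36, and Sema5b by 0.48 and 0.45.

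Sema4d, Sema3b, Sema3d and Plxnb3 rose with day in both genotypes, and these are the 4 rising calls the genotypes shared, 66.7% of each list. The shared part was not computed over all genes. From the array values given above, Sema4d rose by 1.57 ± 0.132 in wild type (SE; adjusted p = 1.22e-06) and by 2.93 ± 0.132 in Olig2cre/DA-Cat (SE; adjusted p = 7.64e-09). Plxnb3 rose by 0.78 and 2.09, and Sema3d by 0.85 and 1.50. The larger rise in Olig2cre/DA-Cat is the same quantity as the change of the genotype difference between days, called for Sema4d and Plxnb3 and not for Sema3d. The other 2 probe sets of Sema4d did not change with day in wild type at the threshold (0.08 and 0.11), whereas both probe sets of Plxnb3 rose, by 0.78 and 0.80.

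Sema3b, a secreted class 3 semaphorin, rose by 0.86 ± 0.114 in wild type (SE; adjusted p = 5.01e-05) and by 0.58 ± 0.114 in Olig2cre/DA-Cat (SE; adjusted p = 0.00102). It read 6.24, 6.40 and 6.59 at day 4 and 7.20, 7.23 and 7.40 at day 15 in wild type, and 6.45, 6.64 and 6.64 against 6.96, 7.14 and 7.37 in Olig2cre/DA-Cat. The days did not overlap in either genotype. The 3 probe sets of Sema3b differed by 0.04 to 0.86 in wild type and 0.21 to 0.58 in Olig2cre/DA-Cat, so the size depended on the probe set. Its genotype differences, 0.17 and -0.12, were not called.

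Sema4f, a transmembrane class 4 ligand, read 8.54, 8.62 and 8.72 at day 4 and 8.95, 8.98 and 9.11 at day 15 in wild type, a rise of 0.39 (adjusted p = 0.00612). In Olig2cre/DA-Cat it read 8.73, 8.95 and 8.96 against 8.91, 9.00 and 9.26, which overlapped (0.18, adjusted p = 0.151). Plxnb1, the receptor of Sema4d, rose by 0.34 in wild type (adjusted p = 0.00126) and differed by 0.10 in Olig2cre/DA-Cat (adjusted p = 0.272). Neither change of day effect between the genotypes was called, at -0.20 (adjusted p = 0.658) and -0.25 (adjusted p = 0.427). Sema3e and Sema5a were called higher with day in Olig2cre/DA-Cat, by 0.36 and 0.44, and were at 0.02 and 0.21 with no call in wild type.

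**Figure D4:**
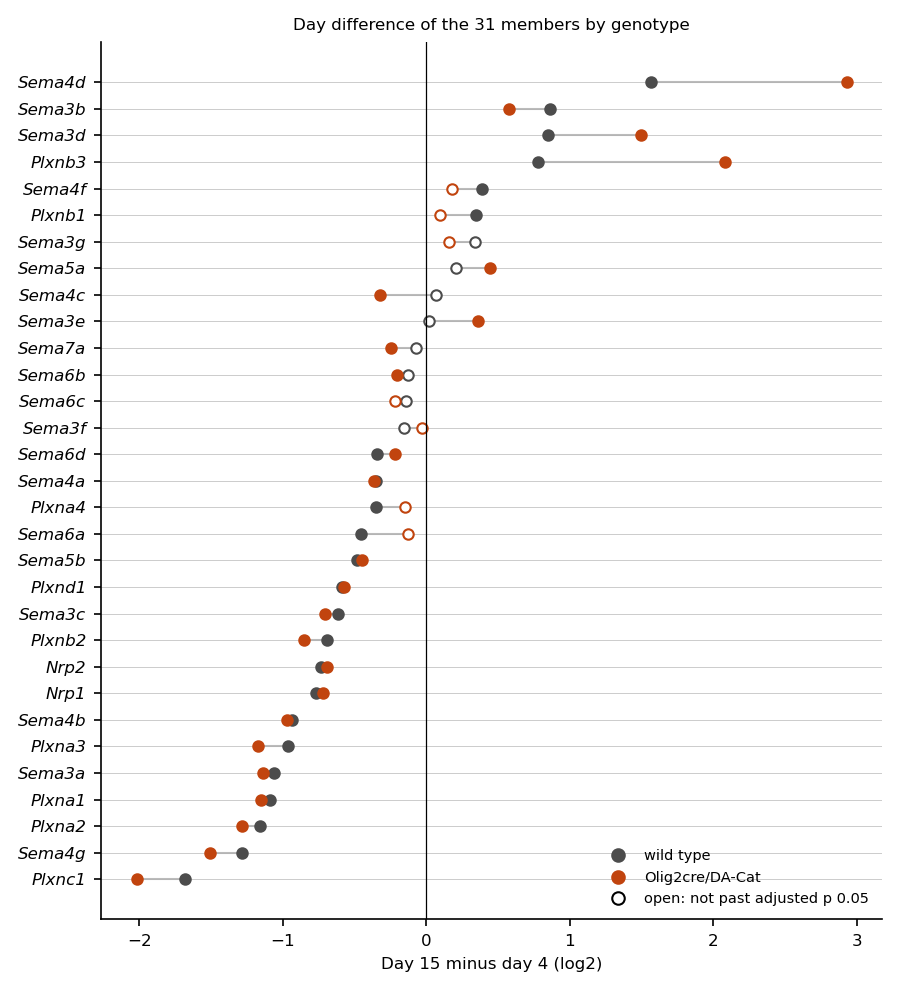
Day 15 minus day 4 in log2 units for each of the 31 members, with wild type in grey and Olig2cre/DA-Cat in orange joined by a line, and open points where the adjusted p was not under 0.05. Most members lie left of 0 in both genotypes, down to Plxnc1 at -1.68 and -2.02, while Sema4d (1.57 and 2.93), Plxnb3 and Sema3d rise and show the longest joining lines.

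Falling calls shared by the genotypes were counted for the members alone, with no such share computed over all genes. Wild type and Olig2cre/DA-Cat had 15 in common, 88.2% of the wild-type list and 83.3% of the other. Plxna4 and Sema6a were called lower in wild type alone, and Sema4c, Sema6b and Sema7a in Olig2cre/DA-Cat alone, with no called difference of the day effect for any of the 5. Sema3f, Sema3g and Sema6c were called in neither, with wild-type differences of -0.16, 0.34 and -0.14. In Olig2cre/DA-Cat the day 15 mean lay inside the interval spanned by both wild-type group means for 4 of the 6 rising and 14 of the 17 falling members. The same wild-type means picked these members and set the interval, so a position inside was favoured in advance. This share was not computed over all genes. Microglia markers rose with day in wild type, 11 of 11 at a median of 0.67, myelin markers 14 of 14 at a median of 2.04, and 6 of 10 meninges markers fell, at a median of -1.04. The part of these cell types in the members' day differences was not tested.

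Probe sets of one gene differed in size for some members. Plxnb3 and Sema5a pointed down in all their probe sets at day 4, from -1.62 to -1.87 and from -0.19 to -0.68. Sema4d ran from -0.27 to -1.90 and Sema3d from -0.04 to -0.81. Day differences in wild type also varied by probe set, for Nrp2 from -0.15 to -1.53 and for Plxna1 from -0.31 to -1.09. They ran from -0.19 to -0.94 for Sema4b, -0.25 to -0.62 for Sema3c and 0.06 to -0.46 for Sema6a. Those of Nrp1 were close, from -0.75 to -0.82.

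**Figure D5:**
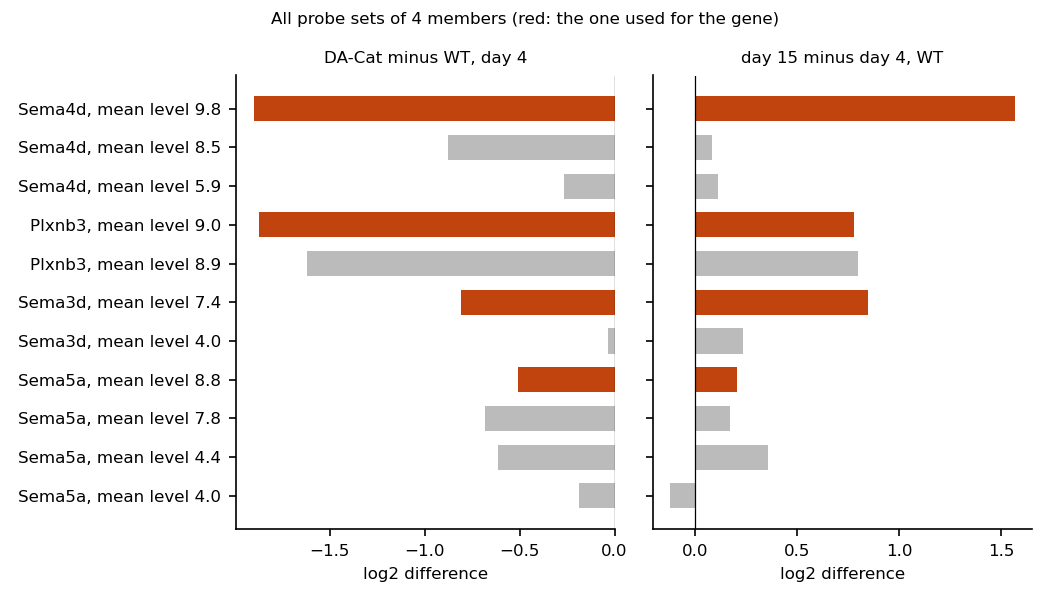
Log2 difference of every probe set of Sema4d, Plxnb3, Sema3d and Sema5a between the genotypes (Olig2cre/DA-Cat minus wild type) on day 4 (left) and day 15 minus day 4 in wild type (right), ordered within a gene by mean level; red bars are the probe set used for the gene. All bars on the left point down, from -0.04 to -1.90, and on the right the 2 other Sema4d bars stay near 0 beside 1.57.

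Few genes that work with semaphorin receptors were called between genotypes, though at a larger share than all genes. Of 47 measured partners (co-receptors, adaptors and effectors, out of 52 listed), 1 was higher and 2 lower at day 4, or 6.38%, and 2 higher and 4 lower at day 15, or 12.8%, against 3.12% and 2.93% of all genes. Rap1a, a small GTPase that plexins inactivate, fell by 0.71 ± 0.108 at day 4 (adjusted p = 0.003, from a wild-type mean of 11.93 to 11.22) and by 0.47 at day 15 (adjusted p = 0.0373). Micall1, a relative of the MICAL proteins, fell by 0.32 at day 4 (adjusted p = 0.0182) and 0.53 at day 15 (adjusted p = 0.00103). Dpysl3, of the collapsin response mediators that relay Sema3a, was higher by 0.30 at day 4 (adjusted p = 0.0239) and by 0.30 at day 15 (adjusted p = 0.019). The kinase Abl1 fell by 0.48 at day 15 (adjusted p = 0.0029), L1cam, an adhesion molecule of the Sema3a receptor complex, was higher by 0.33 (adjusted p = 0.0262), and Met, which can pair with plexin-B1, differed by 0.36 at day 4 with no call (adjusted p = 0.0514). None of the 47 had a called change of its genotype difference between days, while 6 had an unadjusted p under 0.05, or 12.8% against 10.1% of all genes. With day in wild type, 13 partners rose and 17 fell, or 27.7% and 36.2% against 21.3% and 23.6% of all genes. The partner median was -0.00 log2 units, where the 31 members had a median of -0.35.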

How the data were processed

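RNA of 12 spinal cord samples was biotin-labelled and hybridised to Affymetrix 3′ arrays of 45101 probe sets, per the labels' protocols. The authors deposited 1 log2 signal per probe set and array, and the background correction and normalization behind it are not given in the sources used here. Scan and hybridisation batches are not given there either. The values were used as deposited. Of the probe sets, 34958 had 1 gene symbol, 932 had several and 9211 were unlisted in the platform annotation; the last 2 kinds were left out. A gene was represented by its one-symbol probe set with the highest mean, giving 18194 genes.

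One limma fit (version 3.58.1, R 4.3.3) held all 12 arrays with a mean per group, so all comparisons share an estimate of spread, with 8 residual degrees of freedom. The genotype comparisons share arrays with the day comparisons. P-values were adjusted with Benjamini-Hochberg over 18194 genes. With 3 arrays a group, array number sets the precision. The scripts were tested on simulated data.

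The members, gene lists and tests were chosen with earlier results of these data known. Values of every array were printed for members called in a genotype comparison, their average or the difference between days, and for the 5 highest and 5 lowest called day differences in wild type; up to 4 genes of each pathway list with the smallest p per genotype comparison were named. Further probe sets and other members were named after their values were seen. Alternatives were quantile normalization, median centring, a trended robust variance, array weights, a filter on the dimmest 30% of genes, other probe set choices, only the arrays of a comparison, each array left out, a replicate block over all arrays or within each day and a muscle or Eif2s3y covariate.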

Additional observations from a re-analysis of the deposited data

Results flagged for a closer look

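The genotype difference differed between the days for 2 members by the test of that difference (limma, adjusted over 18194 genes). For Sema4d, the plexin-B1 ligand of oligodendrocytes, the difference of Olig2cre/DA-Cat from wild type was less negative at day 15 by 1.36 log2 units (adjusted p = 0.0056). For Plxnb3, the receptor of Sema5a, it was less negative by 1.31 log2 units (adjusted p = 0.014). In both genes every Olig2cre/DA-Cat array was below every wild-type array at either day. The second probe set of Plxnb3 gave 1.14, and the other probe sets of Sema4d gave 0.61 and 0.16 log2 units. Myelin markers, 11 of 14 of which were called in the same direction, moved with both genes, and their part in these values was not tested.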

How the results depend on the processing

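At day 4, where 5 members were called, limma called 9 with a trended robust variance, 16 with array weights, 11 without the dimmest 30% of genes, and 3 to 10 when single arrays were left out. The share of all genes called moved too, from 3.12% to 4.64% with the trended robust variance, 11.9% with array weights and 6.7% without the dimmest genes. With single arrays left out it ran from 1.43% to 4.13%. At day 15, where 1 was called, it called 3 with median centring, with the trended robust variance, with array weights and without the dimmest genes, 2 with the mean of all probe sets, 4 with the Eif2s3y covariate, and 1 to 3 when single arrays were left out. The share of all genes called at day 15 moved from 2.93% to 3.18% with median centring and 4.31% with the trended robust variance. It was 3.76% with array weights, 5.96% without the dimmest genes, 2.6% with the mean of all probe sets and 5.11% with Eif2s3y. With single arrays left out it ran from 1.6% to 5.14%. With only the arrays of day 15 limma called 0 members and 0.747% of all genes, with 3 members at an unadjusted p under 0.05. For the average over days, where 9 were called, it called 14 with array weights, 4 with the muscle covariate, and 5 to 13 with single arrays left out. The share of all genes called moved from 8.31% to 16.5%, to 4.38%, and to between 4.77% and 12.4%, in the same order. The 23 day calls in wild type ran from 21 to 24 and the 24 in Olig2cre/DA-Cat from 22 to 24 with single arrays left out, and from 22 to 24 and 21 to 25 under the other alternatives. The 2 calls for the difference between days became 1 with the Eif2s3y covariate and 1 to 2 with single arrays left out.

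Samples with the same replicate number had correlated deviations of -0.34 to 0.30, of which 5 of 18 pairs exceeded 0.1. Over the whole series the 36 pairs of different numbers ran from -0.31 to 0.36, and 8 of them exceeded 0.1. Within a day all 6 same-number pairs were positive, from 0.0154 to 0.297, with 4 over 0.1. The 12 pairs of different numbers within a day ran from -0.307 to 0.0786. Deviations from a group mean cancel out within the group, so positive same-number pairs push the other pairs down. The lower range of the other pairs is therefore not separate evidence. No pair of different numbers within a day exceeded 0.1. The main fit did not pair the samples by number, and what same-number samples shared within a day was not tested. With the replicate block 5 members were called at day 4, 2 at day 15, 6 for the average, 23 and 25 for the day differences and 2 for the difference between days. Of all genes 3.32%, 2.75% and 8.74% were called for the first 3 of these. For the day differences the shares were 45.0% and 48.4%, and for the difference between days 0.357%. The 5 members at day 4 were 2 higher and 3 lower, against 1 and 4 in the main fit. Sema4d at day 15 (-0.54) then passed (adjusted p = 0.0167), while Sema5a at day 4 (0.0555) and the averages of Sema4g (0.0522), Plxna1 (0.0526) and Plxna2 (0.0512) did not. With the replicate block within each day, chosen after seeing the data and run for genotype alone, 4 were called at day 4, 2 at day 15, 4 for the average and 2 for the difference between days. Of all genes 2.2%, 1.98% and 6.79% were called for the first 3 of these, and 0.28% for the difference between days. Sema4d passed at day 15 (adjusted p = 0.0203), Sema4g did not pass at day 4 (0.0751), and the averages of Sema3a (0.0514), Sema4c (0.0736), Sema4g (0.0886), Plxna1 (0.0704) and Plxna2 (0.0535) did not.

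Of 1001 alternative values for 43 named differences, 891 kept their direction and side of the threshold, 86 no longer passed it, 20 newly passed it and 4 changed sign. The sign changes were in values near 0: Sema4g at day 15 was -0.000295 with median centring and ran from -0.00125 (without replicate 1 of Olig2cre/DA-Cat at day 15) to 0.0372 with single arrays left out, and Sema4c at day 4 was -0.023 with quantile normalization and ran from -9.68e-05 (without replicate 3 of Olig2cre/DA-Cat at day 4) to 0.0624. The cause of these shifts was not tested. The average and the difference between days need all 4 groups, so no fit with fewer groups was made for them.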

Other observations

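Of 38 measured guidance genes of the other families, the netrins, slits, ephrins and their receptors, 24 fell and 2 rose with day in wild type, at a median of -0.61 log2 units, where 23.6% of all genes fell and 21.3% rose. In Olig2cre/DA-Cat 26 fell and 3 rose, where 26.3% of all genes fell and 21.8% rose. With genotype, 1 was higher and 1 lower at day 4, and 1 higher and 4 lower at day 15, or 5.26% and 13.2% against 3.12% and 2.93% of all genes. Unc5b, a netrin receptor, fell in Olig2cre/DA-Cat by 0.57 at day 4 (limma, adjusted p = 0.00559) and by 0.69 at day 15 (adjusted p = 0.00205), from wild-type means of 7.64 and 8.72. Ephb3, a receptor of ephrin-B ligands, rose by 0.40 at day 4 (adjusted p = 0.0368) and differed by 0.15 with no call at day 15. At day 15 the ligand Efnb3 fell by 0.66 (adjusted p = 0.0107), the receptor Ephb1 by 0.40 (adjusted p = 0.0182) and Neo1, a receptor of netrins and repulsive guidance molecules, by 0.39 (adjusted p = 0.0285). None of the 38 had a called change of its genotype difference between days in limma, with 3 at an unadjusted p under 0.05, or 7.89% against 10.1% of all genes.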
